A study of Drosophila melanogaster with 6 samples.

Results

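Fasciclins, cadherins and receptor tyrosine phosphatases are cell-surface proteins with which fly axons and epithelial cells recognise and hold their neighbours. The 10 genes described here, Fas1, Fas2, Fas3, Nrg, CadN, CadN2, stan, Lar, Ptp69D and Ptp10D, were chosen by their FlyBase symbols. They were found among the 17453 genes listed for each library, and all 10 passed the filter on low counts. Fas1 was matched through its transcripts, because its identifier differs between the deposited tables and the annotation used here.

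Fasciclins and Neuroglian bind the same kind of molecule on the next cell and let axons run together in bundles. Classical cadherins bind each other in the presence of calcium and are tied to the actin skeleton by catenins. Receptor tyrosine phosphatases carry immunoglobulin or fibronectin domains outside the cell and phosphatase domains inside it. Many of them act where growth cones choose a path or a partner, among them the photoreceptor axons that grow into the optic lobe.

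RNA was measured in heads of adult flies of the genotype y1 w*; P{PTT-GA}Zn72D[CA07703], males and females together, with 3 libraries of anti-GFP immunoprecipitates (RIP) and 3 of their inputs. This genotype carries a GFP protein trap in Zn72D, which encodes a zinc-finger protein that binds RNA, so the antibody precipitates the tagged Zn72D. Inputs were a small share of the same kind of lysate, and both groups had rRNA removed with antisense DNA oligonucleotides and RNase H before the libraries were made. The comparison asks which RNAs come down with Zn72D. Every library shared the trap allele, no precipitate from untagged flies was analysed here, and the age of the flies was not given. The labels do not say how the 3 replicates were drawn, so the p-values speak of the spread among these libraries, and that spread may be technical.

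Total expected counts were 34401553 to 38331703 in the inputs and 28070655 to 38182015 in the RIP libraries. Ribosomal RNA still took 78.1% to 83.0% of the input counts and 4.73% to 9.39% of the RIP counts, which left 5864723 to 8182107 other counts per input and 25434735 to 36377598 per RIP library. The 10 genes together had 17450 to 26401 counts in an input and 112056 to 168091 in a RIP library. Every read counted for them was assigned to 1 gene alone, since their counts were whole numbers with a posterior SD of 0 in all 6 libraries. For Lar this does not settle the source of the reads. In the annotation used here CG46244 shares 8637 exon bases with Lar on the same strand, and it was not among the genes listed. Replicate 3 of the precipitates stood apart: over all genes, chi-square per degree of freedom was 13.99 between RIP replicates 1 and 2. It was 129 and 127 between them and RIP replicate 3. Between inputs it was 31.5 to 41.2. This value grows with the number of counts, so those of input and RIP are not on a like scale. Markers of other head cells moved unequally between the groups. Of all tested genes 20.2% were enriched and 17% depleted. All 7 neuron markers were enriched, with a summed level of 2248 to 2851 CPM (counts scaled to a common library total) in input and 5250 to 7124 in RIP. Of 7 photoreceptor markers 2 were depleted, of 6 glia markers and 4 hemocyte markers none passed in either direction, of 6 fat body markers 1 was depleted, and of 6 muscle markers 2 were enriched and 3 depleted. No marker was at 0 in any library, and the part of these cell types in the results below was not tested.

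In the precipitate, 9 of the 10 RNAs were enriched at an adjusted p under 0.05 and none was depleted. The background was high: 20.2% of the 11670 tested genes were enriched and 17% depleted (edgeR's quasi-likelihood test, Benjamini-Hochberg adjustment over all tested genes). The log2 fold changes of the 10 genes ran from 0.37 for Fas3 to 1.03 for Fas1, with a median of 0.79. Over all tested genes the median was 0.06 and the 90th percentile 0.91. All 3 RIP values lay above all 3 input values for each of the 10 genes, which was so for 26.5% of the tested genes, while 24.3% had all 3 below. The libraries were put on a common scale by TMM (trimmed mean of M values), so a fold change states how a gene moved against most others. Without both replicate 3 libraries all 10 genes were enriched and none depleted, beside 24.7% and 28.6% of the genes then tested. Libraries of whole heads do not tell from which cells an RNA was recovered.

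**Figure D1:**
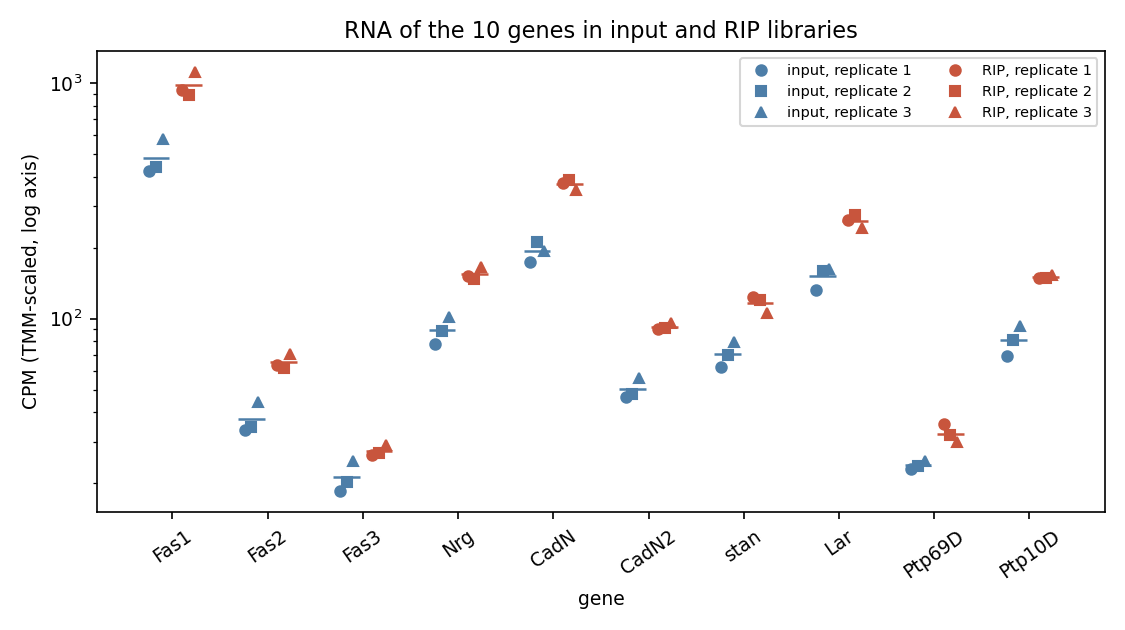
TMM-scaled CPM (log axis) of the 10 genes in each of 3 input and 3 RIP libraries; symbols mark replicate numbers and short lines the group means. Fas1 has the highest values, from 421 to 579 CPM in input and from 889 to 1114 in RIP, and no RIP point of a gene falls to the level of its input points.

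The fasciclins share a name from the axon bundles they were found on and are not all of the same protein family. Fas1 (FBgn0262742; dm6 3R:16625238-16639771, plus strand) encodes a lipid-anchored adhesion protein that gave its name to the fasciclin domain. Its RNA stood at 421, 441 and 579 CPM in the inputs and at 934, 889 and 1114 CPM in the RIP libraries. Replicate 3 was the highest library of each group, and the groups were well apart. Fas1 rose 2.04-fold, a log2 change of 1.03 ± 0.17 (SE, 3 libraries a group, adjusted p = 0.00447), the largest of the 10. It is the only one of them past 2-fold, as 5.9% of the tested genes were in this direction.

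Fas2 (FBgn0000635; X:4132887-4206093, minus strand) encodes an immunoglobulin-domain protein, the fly relative of vertebrate NCAM, which holds axon bundles and larval synapses together. Its inputs were at 33.7, 34.8 and 44.4 CPM and its RIP libraries at 63.6, 61.8 and 70.7 CPM. The spread followed that of Fas1, with replicate 3 highest in both groups. Fas2 rose 1.74-fold (log2 0.80 ± 0.13, adjusted p = 0.00468).

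Fas3 (FBgn0000636; 2L:18320102-18393441, plus strand) encodes an immunoglobulin-domain adhesion protein of epithelia and of some motor axons. Its CPM was 18.6, 20.4 and 24.9 in the inputs and 26.3, 26.8 and 29.1 in the RIP libraries. The groups did not overlap, but the highest input came close to the lowest RIP library. The log2 difference of 0.37 ± 0.13 did not pass (adjusted p = 0.0683). With the replicate number as a block the same difference passed, with an adjusted p of 0.00127, in a fit that called 32.7% of all genes enriched and 27.7% depleted, and without input replicate 3 it was 0.51 and also passed (adjusted p = 0.0142). Without RIP replicate 3 it was 0.21 and did not pass (adjusted p = 0.181).

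Nrg (FBgn0264975; X:8517373-8555170, plus strand) encodes Neuroglian, the fly member of the L1 family, which links axons and glia to the spectrin skeleton through ankyrin. Its inputs held 78.4, 88.8 and 101 CPM, and its RIP libraries 151, 147 and 166 CPM. The lowest RIP library was well above the highest input. Nrg rose 1.73-fold (log2 0.79 ± 0.12, adjusted p = 0.00326).

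Among the cadherins, CadN (FBgn0015609; 2L:17647053-17778340, minus strand) encodes N-cadherin, the main classical cadherin of neurons, which photoreceptor axons need to reach their targets. It had 174, 211 and 194 CPM in the inputs and 377, 389 and 351 CPM in the RIP libraries. Replicate 2 was highest in both groups, and RIP replicate 3 was the lowest precipitate. CadN rose 1.93-fold (log2 0.95 ± 0.10, adjusted p = 0.00119).

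CadN2 (FBgn0262018; 2L:17786971-17875247, minus strand) lies beside CadN on the same strand and encodes a shorter related cadherin. Its inputs were at 46.7, 48.0 and 56.3 CPM and its RIP libraries at 90.1, 91.5 and 95.8 CPM. The 3 precipitates lay close together and far above the inputs. CadN2 rose 1.84-fold (log2 0.88 ± 0.10, adjusted p = 0.00121).

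The atypical cadherin of the set, stan (FBgn0024836; 2R:10673345-10721138, plus strand), also called Flamingo, spans the membrane like a G-protein-coupled receptor and acts in planar cell polarity and in the spacing of axons. Its CPM was 62.6, 69.8 and 79.6 in the inputs and 123, 120 and 106 in the RIP libraries. Replicate 3 was the highest input and the lowest precipitate, so the gap between the groups was narrowest there. The log2 ratio of RIP over input was 0.97 for number 1, 0.78 for number 2 and 0.41 for number 3. Each of the other genes of the set also had its smallest ratio in number 3. With all 6 libraries stan rose 1.64-fold (log2 0.72 ± 0.12, adjusted p = 0.00462).

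Of the receptor phosphatases, Lar (FBgn0000464; 2L:19586623-19732069, plus strand) encodes a receptor of the heparan sulfate proteoglycans Syndecan and Dally-like and works in motor axon guidance and synapse growth. It had 132, 159 and 162 CPM in the inputs and 263, 274 and 242 CPM in the RIP libraries. RIP replicate 3 was the lowest precipitate but lay well above every input. Lar rose 1.72-fold (log2 0.78 ± 0.11, adjusted p = 0.00271).

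Ptp69D (FBgn0014007; 3L:12734945-12741568, plus strand) encodes a phosphatase with immunoglobulin and fibronectin domains that acts with Lar in photoreceptor and motor axons. Its inputs were nearly alike at 23.0, 23.8 and 24.8 CPM, and its RIP libraries were at 35.6, 32.1 and 30.0 CPM. The groups did not overlap, and RIP replicate 3 was again the lowest precipitate. Ptp69D rose 1.37-fold (log2 0.45 ± 0.10, adjusted p = 0.0122), the smallest change of the 9 that passed, and without input replicate 2 it missed the threshold at an adjusted p of 0.0506.

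Ptp10D (FBgn0004370; X:11622015-11677338, plus strand) encodes a phosphatase with fibronectin domains outside the cell that acts in axon guidance at the embryonic midline and in tracheal tubes. Its CPM was 69.1, 81.2 and 92.9 in the inputs and 148, 148 and 152 in the RIP libraries. The precipitates differed from each other far less than the inputs did. Ptp10D rose 1.85-fold (log2 0.88 ± 0.12, adjusted p = 0.00233).

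Per transcript length, the order of the 10 RNAs among themselves was similar in the inputs and the RIP libraries. In TPM, a level per transcript length within a library, Fas1 ranked 260 to 282 among the tested genes in the inputs and 81 to 89 in the RIP libraries. Lar came next of the 10 in every library, at 6.43 to 9.96 TPM in the inputs and 118 to 171 in the RIP libraries. Nrg and CadN changed places between replicates and were not separated beyond their spread, with input means of 7.67 ± 1.65 and 7.63 ± 1.69 TPM (SD, 3 libraries). Ptp10D, Fas2, Fas3, CadN2, stan and Ptp69D followed in that order in each input, down to 2.19 ± 0.33 TPM for Ptp69D. In each RIP library CadN2 stood above Fas3, at 52.6 to 63.9 against 44.3 to 51.5 TPM, the reverse of the inputs. Levels in TPM are not compared between the groups, because rRNA is part of the total that TPM is divided by.

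The genes of a class were set against each other by the log2 ratio of their counts within a library. This ratio did not overlap between RIP and input in 8 of the 12 pairs, which reuse the same 10 genes, and in 45.3% of all pairs of tested genes. The largest difference was that of Fas1 to Fas3, from log2 ratios of 4.50, 4.43 and 4.54 in the inputs to 5.15, 5.05 and 5.26 in the RIP libraries, a difference of 0.66 ± 0.07 (SE). The ratio of Fas2 to Fas3 differed by 0.43 ± 0.04 and that of Fas3 to Nrg by -0.42 ± 0.03. Fas3 had the smallest RIP to input ratio of these 4 genes in each replicate number. The ratio of Ptp69D to Ptp10D differed by -0.45 ± 0.12 and that of Lar to Ptp69D by 0.34 ± 0.09. The ratios of Fas2 to Nrg (0.01 ± 0.05), CadN to CadN2 (0.07 ± 0.12), CadN2 to stan (0.16 ± 0.10) and Lar to Ptp10D (-0.11 ± 0.08) overlapped between the groups. With 3 libraries against 3, the two-sided exact permutation test cannot give a p below 0.1, and the 8 pairs that were apart all had this p (adjusted over the 12 pairs, 0.15), so no pair passed.

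Enrichment followed transcript length across all genes, and the 10 genes have long transcripts. The median length of tested genes was 1822 bases, whereas the 10 ran from 2833 bases in Fas3 to 12167 in CadN and 12499 in stan, as abundance-weighted means over the libraries. Fas3 was at the 72.8th percentile of length and each of the others at the 86.4th or above. Across the tested genes Spearman's rho between length and log2 fold change was 0.64, given as a description since genes of the same libraries are not independent.

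**Figure D2:**
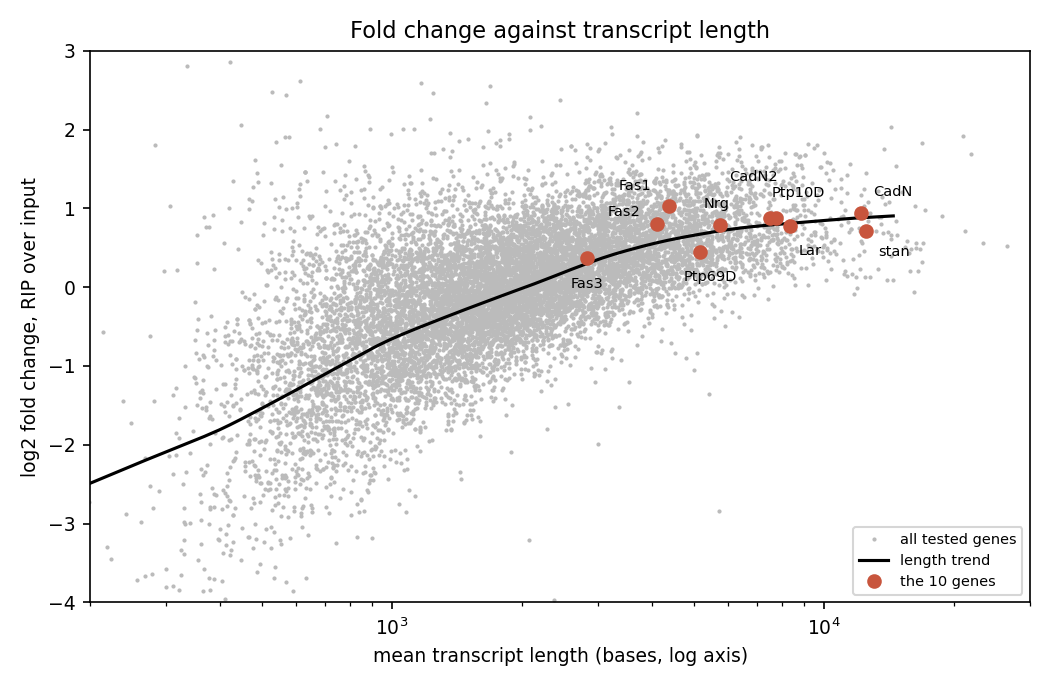
Log2 fold change of RIP over input against mean transcript length in bases (log axis) for all tested genes within the plotted range (grey), the smooth length trend (line) and the 10 genes (red). CadN, CadN2, Ptp10D, Lar and Nrg sit close to the line, Fas1 and Fas2 above it, and Ptp69D and stan below it.

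The trend line ran at 0.30 for the length of Fas3, at 0.57 and 0.60 for Fas2 and Fas1, and at 0.88 and 0.89 for CadN and stan. Set against these, CadN at 0.95 and Fas3 at 0.37 were close to what genes of their length had. When the trend was removed from each library, 1 of the 10 genes was still enriched, beside 10.4% of all tested genes, and none was depleted, beside 10.5%. The 1 gene was Fas1, with a log2 difference of 0.44 ± 0.12 (adjusted p = 0.0474, edgeR). Fas2 came next at 0.24 ± 0.09 and did not pass (adjusted p = 0.111). The other 8 lay between -0.22 ± 0.09 for Ptp69D and 0.10 ± 0.07 for Ptp10D, and stan (-0.16 ± 0.07) and Lar (-0.03 ± 0.08) were also below 0.

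With the replicate block and the length trend removed together, Fas1 (adjusted p = 0.000859) and Fas2 (adjusted p = 0.0125) were enriched, beside 27.6% of all genes. Ptp69D was depleted in that fit at -0.23 (adjusted p = 0.022), beside 22.9% of all genes. Length and binding cannot be told apart by this step alone, since any enrichment that runs with length is removed with the trend.

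**Figure D3:**
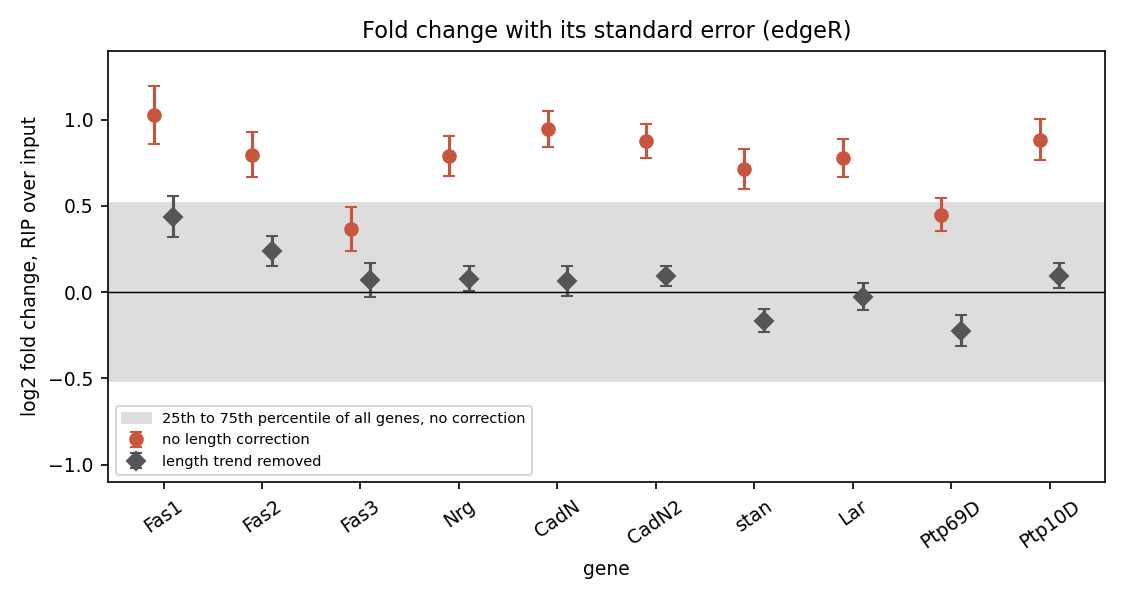
Log2 fold change of RIP over input with its standard error for each of the 10 genes, without a length correction (red circles) and with the length trend removed (grey diamonds); the band spans the 25th to 75th percentile of all tested genes without correction. Without correction 8 genes lie above the band, and with the trend removed Fas1 is the highest at 0.44 and Ptp69D the lowest at -0.22.

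The transcripts of a gene can also shift. The length listed for a gene in a library is the mean over its transcripts, weighted by their estimated abundance, so it changes with the estimated mixture. Counts outside rRNA differed between the groups, and the part of depth or coverage in these estimates was not tested. Of 9 genes with several transcript lengths, 4 had a longer mean in every RIP library than in every input, and none had a shorter one. Without input replicate 3 or RIP replicate 2, Fas1 and Fas2 were also longer in this way, and without input replicate 1 Fas3 was. Without input replicate 2 or RIP replicate 1, CadN2 was shorter in this way. Among the 6269 tested genes with several lengths, 27.2% were longer and 11.5% shorter in this way. Within each replicate number 7 of the 9 were longer in RIP and 1, CadN2, was shorter, beside 34.3% and 16.5% of the genes with several lengths. Ptp69D has in effect 1 length.

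For Nrg the mean length was 5553, 5559 and 5560 bases in the inputs and 5950, 5909 and 6025 in the RIP libraries. The inputs agreed within a few bases, and the gain of 404 bases exceeded that of 95.8% of the genes with several lengths. The annotation has 9 Nrg transcripts, of which 1, at 7386 bases with a 3′ UTR of 3179 bases, is longer than the other 8 (4492 to 5548 bases). From the estimated mean alone, that transcript made up 0.25% to 36.6% of Nrg transcripts in input replicate 1 and 21.9% to 50.4% in RIP replicate 1. Since these limits overlap, the mean does not fix which transcript changed.

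For CadN the mean was 11972, 11829 and 11825 bases in the inputs and 12261, 12146 and 12971 in the RIP libraries. RIP replicate 3 stood far above the other precipitates, and without it the gain of 584 bases was 329. CadN transcripts fall into 2 length classes with almost the same coding length, 4 of 13228 to 13384 bases with a 3′ UTR of 3331 bases and 8 of 10409 to 10427 bases with a 3′ UTR of 518 bases. By the estimated means the long class made up 52.2% to 55.4%, 47.4% to 50.4% and 47.3% to 50.2% of CadN transcripts in the 3 inputs. In the RIP libraries it made up 62.0% to 65.7%, 58.1% to 61.6% and 86.0% to 90.9%. The estimated share of the long 3′ UTR class was higher in every precipitate than in any input.

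For stan the mean rose from 12326, 12342 and 12348 bases in the inputs to 12645, 12720 and 12615 in the RIP libraries, a gain of 321 bases. Its shortest transcript, at 11722 bases with a 3′ UTR of 139 bases, stands apart from 6 others of 12639 to 12963 bases with 3′ UTRs of 1098 to 1327 bases. By the estimated means the longer 6 made up between 48.7% and 68.2% of stan transcripts over the inputs and between 71.9% and 100% over the RIP libraries. Ptp10D gained 151 bases, from 7706, 7685 and 7638 to 7818, 7795 and 7869. In both genes the lowest precipitate lay above the highest input.

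With all libraries in, the remaining genes overlapped between the groups. Fas2 differed by 150 bases, Fas1 by 77, Fas3 by 33 and Lar by 27, and CadN2 by -36 bases. The shares rest on estimated transcript abundances and on an annotation release that may not be the authors', and no test was made on them.

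**Figure D4:**
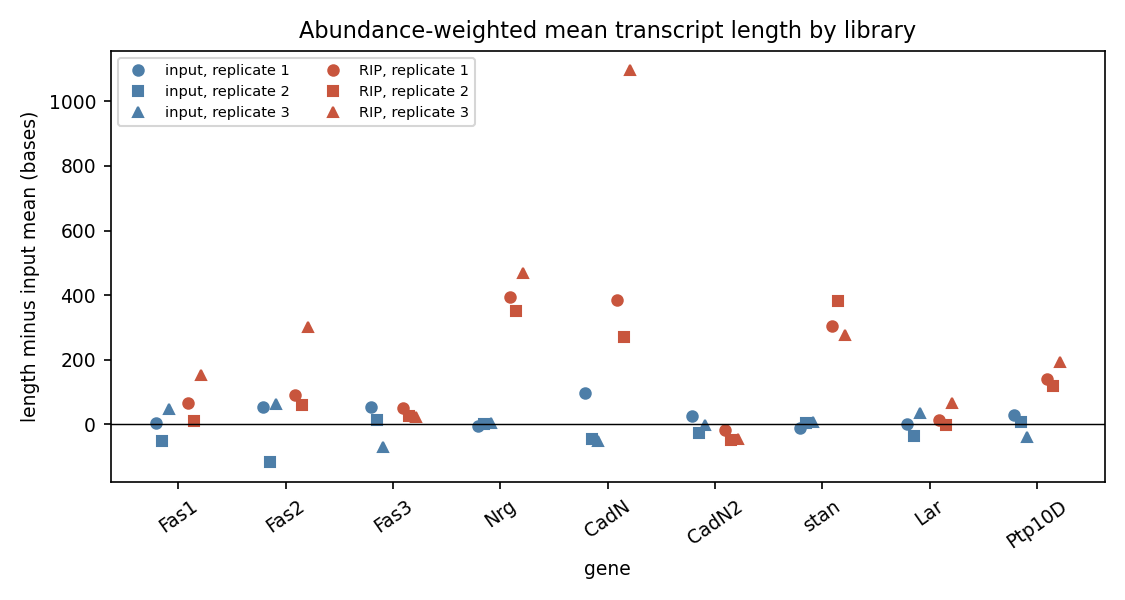
Abundance-weighted mean transcript length in each library minus the mean of the 3 inputs, in bases, for the 9 genes with several transcript lengths; colours mark input and RIP and symbols the replicate number. RIP points of Nrg, CadN, stan and Ptp10D all lie above the input points, and RIP replicate 3 of CadN lies far above the rest.

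Genes related to the 10 by family or by contact moved in the same comparison as follows. Of 58 such genes that were tested, 38 were enriched, 2 were depleted and 18 did not pass. Of all tested genes 20.2% were enriched and 17% depleted in this fit, which also gave the first counts of each list below. The median log2 fold change of the 58 was 0.53, beside 0.06 for all tested genes. With the length trend removed, 13 of the 58 were enriched and 12 depleted, beside 10.4% and 10.5% of all tested genes.

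Of the 13 other cadherins 5 were enriched, none depleted and 8 did not pass, with a median of 0.45. The count ran from 2 to 8 when each library was left out in turn. It was 8 without input replicate 3, 3 without input replicate 1, and 2 without input replicate 2 or any 1 RIP library. With the replicate block it was 9, in a fit that called 32.7% of all genes enriched. The atypical cadherin kug, a Fat-like protein, rose from a mean of 184 CPM to 291 (log2 0.67 ± 0.11, adjusted p = 0.00433), and shg, the E-cadherin of epithelial junctions, rose by log2 0.51 ± 0.10 (adjusted p = 0.00916). Both were below 0 with the length trend removed, at -0.24 each, and of the 13 none was then enriched and 3 were depleted. Cad96Ca, at -0.19 ± 0.16, did not pass without the length correction (adjusted p = 0.417). It was among the 3 depleted with the trend removed, at -0.51 (adjusted p = 0.035). The median of the family's other members was below that of the 10 genes, and the difference was not tested.

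Of the 5 other receptor phosphatases 4 were enriched, with a list median of 0.74. IA-2, a catalytically inactive relative found on secretory vesicles, rose from a mean of 2400 CPM to 5884 (log2 1.29 ± 0.16, adjusted p = 0.00175), and Ptp36E rose by 0.80 ± 0.07 (adjusted p = 0.000673). Both, and no other of the 5, also passed with the length trend removed, and Ptp52F, with a mean of 1.04 CPM in input, did not pass in either fit.

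Of the 16 other adhesion molecules with fasciclin, immunoglobulin or leucine-rich domains that were tested, 12 were enriched and 1 depleted, with a median of 0.81. The immunoglobulin proteins fred (1.16 ± 0.08, adjusted p = 0.000337) and sns (0.99 ± 0.08, adjusted p = 0.000533), the latter a receptor of myoblast fusion, had the smallest p. With the length trend removed 6 of the 16 were enriched and 3 depleted; fred passed and sns, at 0.18, did not (adjusted p = 0.147). The depleted gene was mfas, which encodes midline fasciclin and, like Fas1, carries fasciclin domains. It fell from a mean of 41.4 CPM to 28.6 (log2 -0.53 ± 0.09, adjusted p = 0.00482), where Fas1 rose.

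Of 14 cytoplasmic partners 10 were enriched and 1 was depleted, with a median of 0.53, and 5 were enriched without input replicate 1, input replicate 2 or RIP replicate 2, and 6 without the rRNA genes. With the length trend removed the balance turned, to 1 enriched and 5 depleted. With the replicate block as well these were 4 and 6, beside 27.6% and 22.9% of all genes. The scaffold gene dlg1 rose by 0.94 ± 0.12 (adjusted p = 0.00172) and ena, a regulator of actin filaments that works with receptor phosphatases, by 0.81 ± 0.11 (adjusted p = 0.00231). With the trend removed dlg1 passed and ena, at 0.23, did not (adjusted p = 0.108). The gene that fell was arm, which encodes the fly beta-catenin that binds cadherin tails, from a mean of 124 CPM to 89.9 (log2 -0.47 ± 0.12, adjusted p = 0.0221). Without input replicate 2 or RIP replicate 2 arm missed the threshold, with adjusted p of 0.0703 and 0.0628. Of 10 tested extracellular ligands and planar polarity genes 7 were enriched and none was depleted, with a median of 0.73. Among them fz (1.05 ± 0.13, adjusted p = 0.00177) and Vang (0.95 ± 0.12, adjusted p = 0.00166), which act with stan in planar polarity, both passed with and without the length trend, and of the 10 ligand and polarity genes 4 were enriched and 1 depleted with it removed. The directions of mfas and arm turned under scaling by library size alone and in TPM, as every one of the 58 genes was then higher in RIP.

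**Figure D5:**
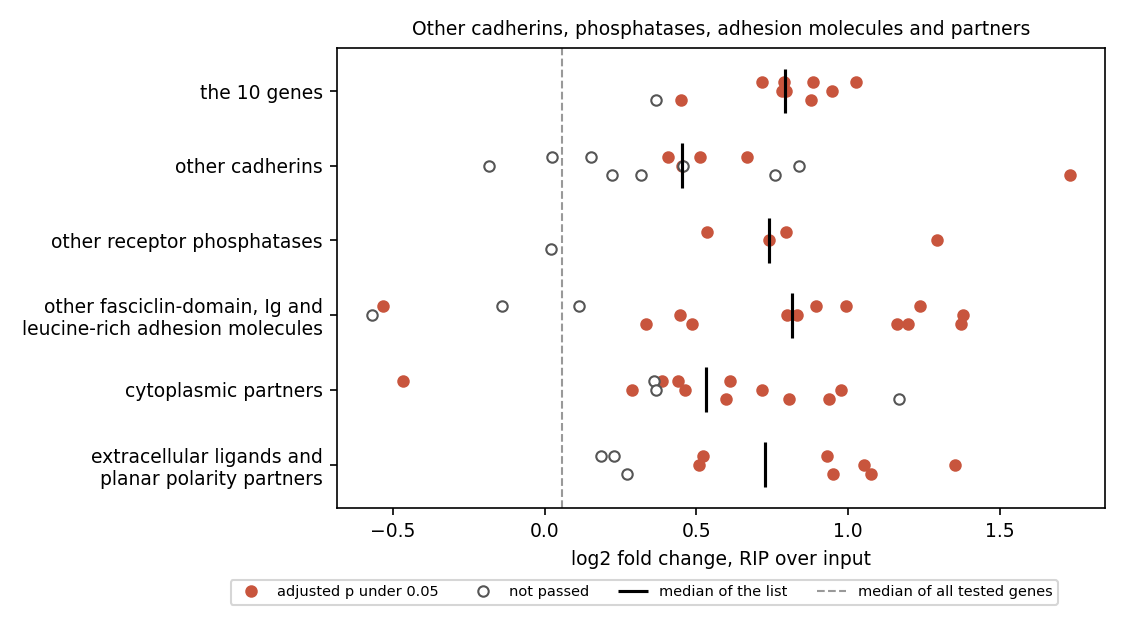
Log2 fold change of RIP over input for the 10 genes and the 5 lists of related genes; filled points passed at an adjusted p under 0.05, open points did not, short lines are list medians and the dashed line is the median of all tested genes. The medians lie between 0.45 for the other cadherins and 0.81 for the other adhesion molecules, and mfas and arm are the filled points below 0.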

How the data were processed

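Per the submitters' processing notes, the tools were RSEM 1.2.30, STAR 2.5.4b, Trim Galore 0.4.5 and DESeq2 1.20.0, with the build dm6. Which annotation release and which strand setting were used is not given in the sources used here. Precipitates were washed 8 times, per the labels' protocols, which give the input as 4% of the lysate (5% in the design text). The authors deposited RSEM tables whose headers name expected counts, TPM, gene length, effective length and a posterior SD of the count. Lengths given here are in bases. Of the expected counts 95.1% were whole as listed (no tolerance).

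Genes were named from an Ensembl annotation of dm6 (17179 of 17453 identifiers directly, 197 through transcripts). The 10 genes, the lists and the rule for named genes (the 10 genes, the 2 smallest p and the smallest opposite p of each list, and the 5 most similar profiles) were chosen with earlier results of these data known. Expected counts were rounded, filtered by filterByExpr, scaled by TMM (factors 0.478 to 0.608 in input, 1.69 to 2.01 in RIP) and tested by edgeR 4.0.16 (R 4.3.3) on group alone. Each standard error is the log2 fold change over the root of its F statistic. Alternatives, 19 in number, used DESeq2 1.42.0, limma 3.58.1, other scalings, a replicate block, a loess length trend (span 0.3) removed per library, and left-out libraries. The scripts were tested on simulated counts, which had no replicate effect and a lower dispersion than the main fit found here. Log2 ratios of genes used counts plus 0.5. Shares of transcript classes are the limits that the mean length allows.

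Same-numbered libraries deviated together from their group means (r = 0.64, 0.58 and 0.83), as did numbers 1 and 2 with each other (0.59 and 0.61). These values set number 3 apart but do not show that a number pairs an input with a precipitate. The fit with the number as a block is given as an alternative to the unpaired main tests. Number 3 went against numbers 1 and 2 (r = -0.77 to -0.64). The common dispersion was 0.102 without the block and 0.0079 with it.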

Additional observations from a re-analysis of the deposited data

How the results depend on the processing

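Of the 10 genes, 8 to 10 were enriched in 17 of the 19 alternatives and none was depleted in 18. With the length trend removed 1 was enriched, and with the replicate block and the length trend removed 2 were enriched and 1 depleted. The count without 1 library ran from 8 to 10. Fas1 passed in all 19 (adjusted p up to 0.0474), and Fas3 passed in 7. The passes of the 10 genes, those of Fas3 among them, include library size alone and both TPM scales. Most of all genes were enriched in those settings, so a pass there tells nothing particular of the 10. Across all genes, 2362 were enriched and 1989 depleted, against 9386 and 173 with library size alone, 11296 and 25 on log2(TPM + 1), 11315 and 27 on log2(TPM + 0.1), 3821 and 3230 with the replicate block, and 1209 and 1231 with the length trend removed. Leaving out 1 library gave 1593 to 2608 enriched and 1409 to 2361 depleted, and without both replicate 3 libraries 3498 were depleted. The median of all genes moved to 1.90 with library size alone and to 2.54 and 3.25 on the 2 TPM scales, since rRNA takes most input counts and stays in those totals.

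Of the 58 related genes, 58 were enriched and 0 depleted with library size alone and on both TPM scales. With the length trend removed 13 were enriched and 12 depleted, beside 10.4% and 10.5% of all genes. With the replicate block and the trend removed these were 21 and 23, beside 27.6% and 22.9% of all genes. Depleted counts were 1 with no filter on low counts, 4 without both replicate 3 libraries, and 1 to 3 without 1 library; enriched counts without 1 library were 26 to 46.

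With the length trend removed, alone and with the replicate block, log2 fold changes turned to -0.16 and -0.17 for stan, -0.026 and -0.026 for Lar, -0.22 and -0.23 for Ptp69D, -0.24 and -0.23 for kug, -0.24 and -0.24 for shg, and -0.040 and -0.041 for Cubn. With library size alone and on log2(TPM + 1) and log2(TPM + 0.1), Cad96Ca turned to 1.66, 2.51 and 3.12, mfas to 1.30, 2.67 and 2.81, and arm to 1.37, 2.86 and 2.92. The ratio of Fas2 to Nrg turned to -0.046 on log2(TPM + 1) and ran from -0.038 (without input replicate 2) to 0.041 without 1 library, that of CadN to CadN2 ran from -0.0084 (without input replicate 3) to 0.17, and that of Lar to Ptp10D turned to 0.016 on log2(TPM + 1). The cause of these turns was not tested.

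Of mean transcript lengths, 7 genes were longer and 1 shorter in RIP within every number (replicate block), 1 was shorter by effective length, and 0 to 1 without 1 library. Without a length correction, the replicate block changed the call of Fas3 and of no other of the 10 genes; with the length trend removed it changed those of Fas2 and Ptp69D.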

Other observations

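Among 4462 tested genes with a mean of 10 CPM or more outside the 10, those whose centred log2 CPM over the 6 libraries lay nearest to the median profile of the 10 were side-IV, CG10428, NK7.1, Rlip and Cubn. Their root mean square distances were 0.0284, 0.0288, 0.0288, 0.0288 and 0.0292 on the log2 scale, against 0.046 to 0.22 for the 10 genes themselves. The choice of these genes fixes their direction, and their values are given as a description, with log2 fold changes of 0.75 for side-IV, an immunoglobulin-domain gene of the Sidestep family, 0.76 for CG10428, 0.80 for NK7.1, 0.79 for Rlip and 0.82 for Cubn. Closeness over 6 libraries describes the values alone.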
